A study of Mus musculus with 12 samples.

Results

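Genes that mark regulatory T cells were followed through the ileum and synovium of mice that overproduce TNF. They were Foxp3, Il2ra, Ctla4, Ikzf2, Tnfrsf4, Tnfrsf9, Tnfrsf18, Ebi3 and Il10. They were taken from the table of raw counts by matching Ensembl identifiers to these symbols, and all 9 were found among 46603 genes. Their measured values played no part in the matching, but the set was chosen with earlier results of these data known. Bulk poly-A RNA was sequenced from 12 libraries in 4 groups of 3 replicates. These were ileum of TNFdARE mice, ileum of WT littermates, synovium of TNFdARE mice and synovium of WT littermates. The TNFdARE allele lacks the AU-rich element of the Tnf transcript, which in normal mice shortens the life of that transcript. It is a change of the germline, so every cell type of the mouse carries it, and the labels record no treatment. The labels give no age, no zygosity and no statement on whether an ileum and a synovium with the same number came from the same mouse.

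Regulatory T cells are CD4+ T cells that restrain other immune cells. The transcription factor FOXP3 fixes their identity, and a high-affinity receptor for IL-2, of which Il2ra encodes the alpha chain, lets them take up that cytokine and survive. They carry the inhibitory receptor CTLA-4 and several costimulatory receptors of the TNF receptor superfamily, and can release IL-10 and cytokines that contain the EBI3 subunit. Most of these genes are not limited to regulatory T cells: activated conventional T cells, macrophages, dendritic cells and other cells transcribe one or more of them. In bulk RNA, fewer cells of a type and less RNA per cell cannot be told apart.

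Library totals lay between 14267834 and 16224402 counts, so 1 count was worth 0.0607 to 0.0709 CPM, the share of a library's counts scaled to a common total after TMM correction of the library sizes within a tissue. Tnf itself had 244 to 1303 counts in TNFdARE ileum libraries (WT 19 to 38) and 488 to 641 in TNFdARE synovium libraries (WT 29 to 31), with no overlap between the genotypes. Marker genes followed the labelled tissues: 8 genes of ileal epithelium summed to 10205 to 14603 CPM in ileum libraries and 11.7 to 29.6 CPM in synovium libraries, where Alpi was at 0. The sum of 7 synovial fibroblast genes was 24738 to 50617 CPM in synovium libraries and 830 to 1025 CPM in ileum libraries. The synovium libraries also held skeletal muscle transcripts, at 1828 to 7516 CPM over 10 genes in TNFdARE and 10211 to 20652 CPM in WT.

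Short stretches of promoter that match binding motifs of factors linked to these genes are shown first. Of the members whose genotype difference passed the test in the ileum, 3 hold such letters, and Il2ra and Ebi3 hold none. Ctla4 and Tnfrsf4, which did not pass there, hold matches too, so a match does not set the called members apart. RefSeq promoter windows of 300 bases (GRCm38.p6, from 250 bases before to 50 after an annotated start) were at hand for 7 of the 9 members, 2 windows each for Foxp3 and Tnfrsf9 and 1 for each of the other 5. Both strands were searched for an NF-kB motif (the letters in capitals in the first line, with any base at positions 4 and 5 of the motif), TTCNNNGAA (STAT), TGGAAA (NFAT) and TGANTCA (AP-1). In the lines below, capitals mark the matching letters, written on the forward strand, which is also the strand of the gene. Matches to the NFAT letters, the only ones in Ctla4 and Tnfrsf4, are not printed.
Tnfrsf9, NF-kB, chr4:150927946-150927975: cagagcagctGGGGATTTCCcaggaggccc
Tnfrsf9, STAT, chr4:150927853-150927882: caacagctgaTTCCAAGAAacccttcagag
Tnfrsf9, AP-1, chr4:150927973-150928002: ccctgctcagtTGAGTCAcaggtcctgtgt
Tnfrsf18, STAT, chr4:156026213-156026242: tgctctacacTTCACAGAAggcctttacaa
Foxp3, STAT, chrX:7580334-7580363: gagctctgttTTCCAAGAAcgggcattagt

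Tnfrsf9, with 2 windows to search, held matches to all 4 motifs, the NFAT one in its other window. Its NF-kB match began 43 bases before the RefSeq start, its AP-1 match 15 bases before and its STAT match 136 bases before. Shares are per window. The NF-kB letters occur in 1.63% of 32851 mouse promoter windows of the same length and in 1 of the 9 member windows, the AP-1 letters in 7.81% and also 1 member window. STAT letters occur in 8.30% of promoters and in 3 member windows, at 99 bases before the start in Tnfrsf18 and 139 before in Foxp3. The Foxp3 STAT match overlaps a match to the NFAT letters on the other strand. NFAT letters occur in 21.4% of promoters and in 4 member windows, those of Ctla4, Tnfrsf9, Tnfrsf4 and Foxp3. These are matches of letters in a window, and binding was not measured.

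In the ileum, 5 of the 8 members that could be tested rose in TNFdARE mice and none fell, where 4.12% of all 15462 genes tested were called higher and 5.68% were called in either direction. They were Foxp3, Tnfrsf9, Ebi3, Tnfrsf18 and Il2ra. Calls are adjusted p-values under 0.05 from edgeR's quasi-likelihood test over all genes. The median log2 fold change of the 8 tested members was 1.74, beside -0.00 over all genes. In 7 of the 8 tested members the lowest TNFdARE library exceeded the highest WT library, which held for 19.3% of all genes tested.

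**Figure D1:**
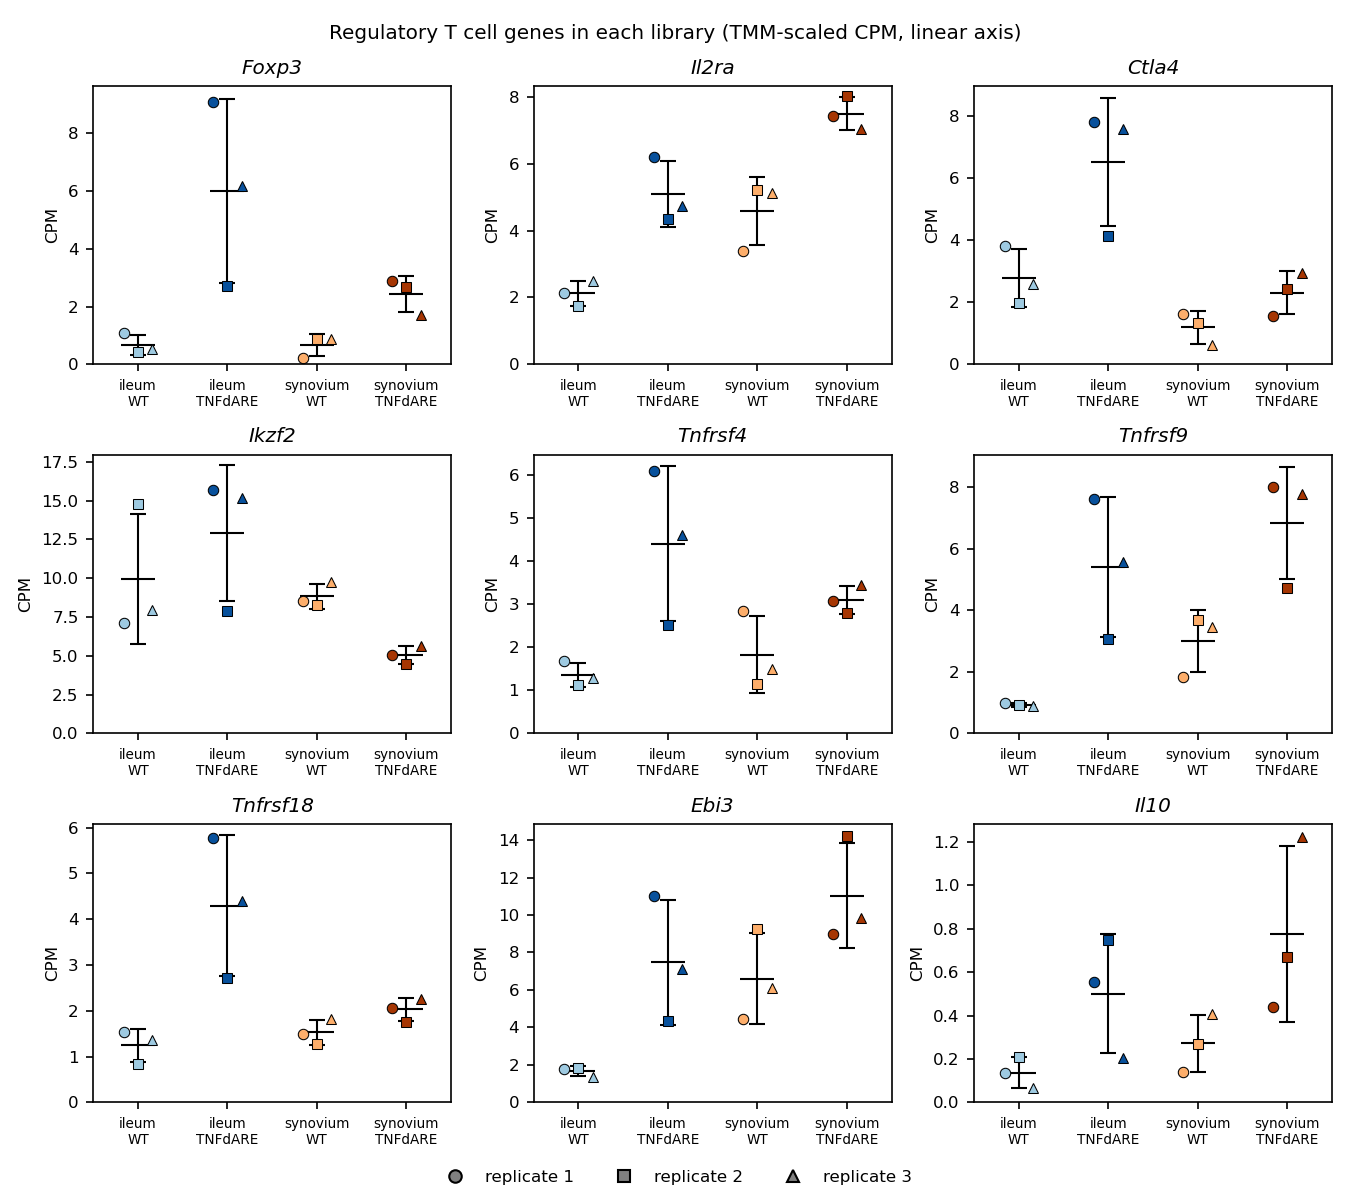
Level of each gene in each of the 12 libraries, in CPM on a linear axis that starts at 0. Circles, squares and triangles are replicates 1, 2 and 3, the long bar is the group mean and the whiskers are 1 SD (n = 3). In the ileum, TNFdARE replicate 2 lies lowest of its group for every gene but Il10.

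Foxp3, which encodes the lineage-defining transcription factor (ENSMUSG00000039521, chrX:7573644-7595245, forward strand of GRCm38), had 148, 40 and 91 counts in the 3 TNFdARE ileum libraries and 16, 6 and 8 in the WT ones. In CPM these are 9.09, 2.71 and 6.17 against 1.07, 0.42 and 0.54, with means of 5.99 ± 3.19 and 0.677 ± 0.343 (SD, n = 3). The groups did not overlap, though TNFdARE replicate 1 stood at more than 3 times the level of replicate 2. The log2 fold change was 3.13 ± 0.56 (SE), an 8.74-fold difference, with an adjusted p of 0.0410 by edgeR. This was the largest fitted difference among the members in the ileum. Foxp3 shares sequence on the genome with Ppp1r3f, Gm36995 and Ccdc22 on the other strand and with Flicr on its own strand. Flicr had at most 8 counts in a library, and whether the counting used strand is not given in the sources used here.

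In the synovium Foxp3 had 46, 44 and 28 counts in TNFdARE libraries and 3, 13 and 13 in WT libraries. The levels were 2.87, 2.67 and 1.71 CPM against 0.21, 0.87 and 0.88 CPM. Again no library of one genotype reached into the range of the other, and WT replicate 1 was the lowest of all. The log2 fold change was 1.86 ± 0.48, 3.64-fold, with an adjusted p of 0.0310 by edgeR.

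Il2ra, the alpha chain of the high-affinity IL-2 receptor (ENSMUSG00000026770, chr2:11642807-11693193, forward strand), had 101, 64 and 70 counts in TNFdARE ileum and 32, 25 and 37 in WT ileum. It rose by 1.25 ± 0.23 on the log2 scale (adjusted p = 0.0412, edgeR). In the synovium it had 119, 132 and 115 counts in TNFdARE and 48, 78 and 76 in WT, and rose by 0.71 ± 0.21 (adjusted p = 0.0451). The TNFdARE libraries lay above all WT libraries in both tissues, at 4.34 to 6.20 CPM in the ileum and 7.04 to 8.02 CPM in the synovium. The synovium call lies near the threshold: it was lost when libraries were scaled by total count alone (log2 fold change 0.72, adjusted p = 0.0566).

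Ctla4, the inhibitory receptor that binds CD80 and CD86 (ENSMUSG00000026011, chr1:60887000-60915832, forward strand), did not pass the test in either tissue. Its counts were 127, 61 and 112 in TNFdARE ileum and 57, 28 and 38 in WT ileum, and 25, 40 and 48 in TNFdARE synovium against 23, 20 and 9 in WT synovium. The ileum groups did not overlap, while in the synovium TNFdARE replicate 1, at 1.56 CPM, lay within the WT range of 0.61 to 1.63 CPM. The log2 fold changes were 1.22 ± 0.34 in the ileum (adjusted p = 0.0751) and 0.95 ± 0.42 in the synovium (adjusted p = 0.138). With the replicate number as a block the ileum value was called, at the same log2 fold change of 1.22 and an adjusted p of 0.0393.

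Of the 3 costimulatory receptors of the TNF receptor superfamily, Tnfrsf9 passed the test in both tissues, Tnfrsf18 in the ileum and Tnfrsf4 in neither. Tnfrsf9 encodes 4-1BB (ENSMUSG00000028965, chr4:150914562-150946102, forward strand). It had 124, 45 and 82 counts in TNFdARE ileum and 15, 13 and 13 in WT ileum, and rose by 2.53 ± 0.38 on the log2 scale (adjusted p = 0.0404). Synovium libraries held 128, 78 and 127 counts in TNFdARE and 26, 55 and 51 in WT, and the rise there was 1.19 ± 0.32 (adjusted p = 0.0364). The genotypes did not overlap in either tissue, and the 3 WT ileum libraries were the lowest, at 0.88 to 1.00 CPM. The gene overlaps Camta1 on the other strand, which had 127 to 265 counts per library.

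Tnfrsf18 encodes GITR (ENSMUSG00000041954, chr4:156026164-156028895, forward strand). It had 94, 40 and 65 counts in TNFdARE ileum and 23, 12 and 20 in WT ileum, and rose by 1.78 ± 0.37 (adjusted p = 0.0459). In the synovium the counts were 33, 29 and 37 against 21, 19 and 27. Here the groups overlapped slightly, at 1.76 to 2.27 CPM in TNFdARE and 1.27 to 1.83 CPM in WT, and the log2 fold change of 0.41 ± 0.27 did not pass (adjusted p = 0.309). An antisense gene, Gm16008, spans Tnfrsf18 and had 41 to 57 counts per ileum library and 91 to 133 per synovium library, more than Tnfrsf18 itself in the synovium.

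Tnfrsf4 encodes OX40 (ENSMUSG00000029075, chr4:156013843-156016612, forward strand) and lies next to Tnfrsf18. Its counts were 99, 37 and 68 in TNFdARE ileum and 25, 16 and 19 in WT ileum, without overlap. The log2 fold change of 1.69 ± 0.37 missed the threshold by a little (adjusted p = 0.0501), and was called with the replicate number as a block (1.64, adjusted p = 0.0347). In the synovium the counts were 49, 46 and 56 against 40, 17 and 22, and the log2 fold change of 0.77 ± 0.36 did not pass (adjusted p = 0.158). WT replicate 1, at 2.84 CPM, reached into the TNFdARE range of 2.79 to 3.43 CPM; without it the log2 fold change was 1.23 (adjusted p = 0.0356).

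Ebi3, the subunit shared by IL-27 and IL-35 (ENSMUSG00000003206, chr17:55952640-55957022, forward strand), had 179, 64 and 105 counts in TNFdARE ileum and 27, 26 and 20 in WT ileum. It rose by 2.17 ± 0.37 (adjusted p = 0.0404). In the synovium, where WT libraries already held 63, 138 and 90 counts, the TNFdARE libraries had 144, 234 and 161. WT replicate 2 at 9.25 CPM lay above TNFdARE replicate 1 at 8.99 CPM, and the log2 fold change of 0.74 ± 0.30 did not pass (adjusted p = 0.114). With the replicate number as a block it was called (0.76, adjusted p = 0.0111).

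Ikzf2, which encodes the Ikaros family factor Helios (ENSMUSG00000025997, chr1:69531214-69687245, reverse strand), was the exception. In the ileum its counts were 256, 116 and 224 in TNFdARE and 107, 211 and 117 in WT, so that the groups overlapped, and the log2 fold change was 0.38 ± 0.38 (adjusted p = 0.530). In the synovium it had 81, 74 and 92 counts in TNFdARE against 120, 123 and 144 in WT, and fell by 0.80 on the log2 scale (SE 0.16, adjusted p = 0.0128). Every TNFdARE synovium library, at 4.49 to 5.63 CPM, lay below every WT one, at 8.25 to 9.74 CPM. The call was not made in a fit of all 12 libraries (-0.83, adjusted p = 0.0809) or without WT replicate 3 (-0.73, adjusted p = 0.0551).

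Il10, an anti-inflammatory cytokine made by regulatory T cells and by other leukocytes (ENSMUSG00000016529, chr1:131019845-131024974, forward strand), had too few counts to enter the fit of either tissue. It had 9, 11 and 3 counts in TNFdARE ileum and 2, 3 and 1 in WT ileum, which touch at 3. The sums of 23 and 6 give a ratio of 3.97 per sequenced count (95% interval 1.57 to 11.9 for counting error only), and an exact permutation test over libraries, two-sided, gave p = 0.2. In the synovium it had 7, 11 and 20 counts against 2, 4 and 6, without overlap. That ratio was 2.88 (1.47 to 6.05), with an exact permutation p of 0.1, the smallest that 3 libraries against 3 can give. Kept in an unfiltered fit, Il10 was not called by edgeR in either tissue (adjusted p = 0.193 in the ileum and 0.133 in the synovium).

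In the synovium as a whole, 3 of the 8 tested members rose (Foxp3, Il2ra, Tnfrsf9) and 1 fell (Ikzf2), where 13.1% of 15599 genes were called higher and 10.7% lower, 23.8% in all. The median log2 fold change of the members was 0.75, beside 0.00 over all genes. In 4 of the 9 members the TNFdARE libraries all lay above the WT libraries, against 23.2% of the 15599 genes tested. One of these members, Il10, was not among the genes tested. With the level of skeletal muscle genes as a covariate none of the 8 passed with edgeR (2 had an unadjusted p under 0.05). The log2 fold changes were then 2.07 for Foxp3, 0.58 for Il2ra, 0.90 for Tnfrsf9 and -0.96 for Ikzf2. The summed muscle level did not overlap between the genotypes (1828 to 7516 CPM in TNFdARE and 10211 to 20652 in WT). Muscle level and genotype therefore cannot be told apart in that fit, and nothing is concluded from the lost calls.

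**Figure D2:**
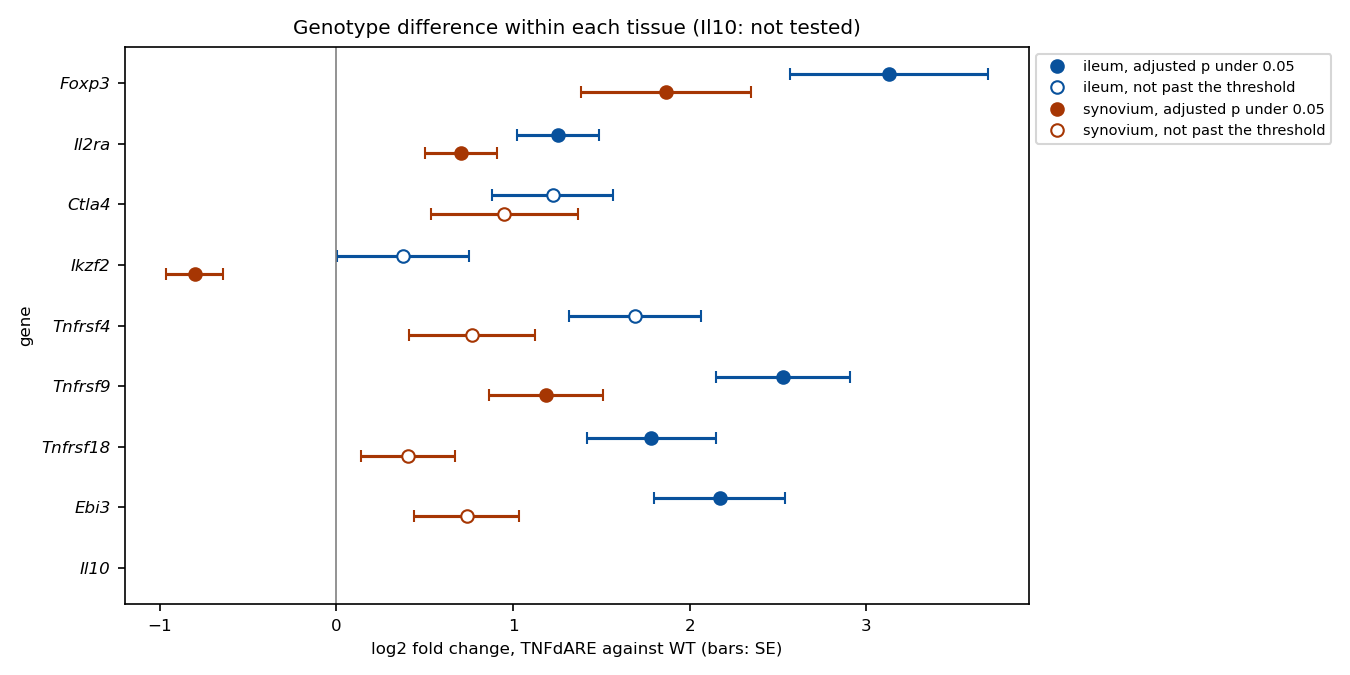
Log2 fold change of TNFdARE against WT for each gene in the ileum (blue) and the synovium (brown), with bars of 1 SE; filled points passed an adjusted p of 0.05 and open points did not. Il10 was not tested. The largest values are those of Foxp3, 3.13 (ileum) and 1.86 (synovium), and the synovium value of Ikzf2 is the only one below 0.

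The tissues were then compared in their response. The difference between the synovium effect and the ileum effect was below 0 for all 9 members, and none was called by edgeR, DESeq2 or limma-voom (4, 4 and 3 members had an unadjusted p under 0.05), where edgeR called 12.1% of 16964 genes (5.28% higher and 6.80% lower). The median was -1.20 on the log2 scale, beside -0.08 over all genes. Tnfrsf18 differed by -1.40 ± 0.45 (adjusted p = 0.0670), Ebi3 by -1.46 ± 0.51 (0.0856), Ikzf2 by -1.20 ± 0.43 (0.0923), Tnfrsf9 by -1.37 ± 0.53 (0.112) and Foxp3 by -1.29 ± 0.80 (0.314). The values of Tnfrsf4 (-0.95 ± 0.54), Il2ra (-0.57 ± 0.31), Il10 (-0.36 ± 0.89) and Ctla4 (-0.30 ± 0.57) had adjusted p-values of 0.242 to 0.838. The smaller numbers in the synovium are therefore not shown to differ from those in the ileum in this fit. With the replicate number as a block, Tnfrsf18 (-1.38, adjusted p = 0.0266) and Ebi3 (-1.36, adjusted p = 0.0438) were called. Without ileum TNFdARE replicate 2, Tnfrsf18, Ebi3, Ikzf2 and Tnfrsf9 were called (-1.55, -1.63, -1.37 and -1.56). Without ileum WT replicate 2, Ikzf2 alone was called (-1.53, adjusted p = 0.0325). Over all genes, the fits that left out 1 library called from 1015 to 3506, beside 2050 in the main fit.

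Between the tissues of WT mice, 4 of 9 members were called: Il2ra (1.01 ± 0.23), Tnfrsf9 (1.58 ± 0.40) and Ebi3 (1.89 ± 0.38) were higher in the synovium on the log2 scale and Ctla4 lower (-1.32 ± 0.42, edgeR adjusted p = 0.0144). As 74.2% of all genes were called in this comparison (38.2% higher and 36.0% lower), the count says little about these members. Foxp3 was low in both WT tissues, with a log2 difference of -0.14 ± 0.63 (adjusted p = 0.847) that turned to 0.01 when libraries were scaled by total count alone. Ikzf2 (-0.27 ± 0.30), Tnfrsf4 (0.32 ± 0.40), Tnfrsf18 (0.20 ± 0.33) and Il10 (0.87 ± 0.76) were not called. The Ctla4 call was lost without ileum WT replicate 1 (adjusted p = 0.0570) or synovium WT replicate 3 (adjusted p = 0.0537).

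Between the tissues of TNFdARE mice, Foxp3 (-1.43 ± 0.49), Ctla4 (-1.62 ± 0.39), Ikzf2 (-1.47 ± 0.31) and Tnfrsf18 (-1.20 ± 0.31) were lower in the synovium, 4 of 9 beside 66.7% of all genes called in either direction and 35.0% called lower. For Foxp3 the edgeR adjusted p was 0.0235; it was 0.122 without ileum TNFdARE replicate 1, 0.0533 without ileum TNFdARE replicate 3 and 0.0811 without synovium TNFdARE replicate 3. Il2ra, Tnfrsf4, Tnfrsf9, Ebi3 and Il10 were not called. This comparison shares its libraries with those within the tissues.

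Per length of exon, Ebi3 had the highest level of the 9 genes in every group, from 1.496 CPM per kb in WT ileum to 9.09 in TNFdARE synovium. Foxp3 was next to last or last in 3 groups: its mean was 0.154 CPM per kb in WT ileum and 0.139 in WT synovium, where only Il10 in the ileum (0.109) was lower, and 0.504 in TNFdARE synovium, above Ikzf2 (0.415). In TNFdARE ileum Foxp3 reached 1.36 ± 0.720 CPM per kb, above Ikzf2 and Il2ra (0.925 ± 0.176), neighbours whose ranges overlap with its own. The order at the top of TNFdARE ileum ran from Ebi3 (6.72 ± 2.99) to Tnfrsf4 (3.34 ± 1.36), Tnfrsf18 (2.92 ± 1.04), Ctla4 (2.90 ± 0.911) and Tnfrsf9 (2.06 ± 0.867). Tnfrsf4, Tnfrsf18 and Ctla4 cannot be ranked within this spread. For each gene taken across the groups, Foxp3, Ctla4, Tnfrsf4, Tnfrsf18 and Ikzf2 had their highest mean in TNFdARE ileum, and Il2ra, Tnfrsf9, Ebi3 and Il10 in TNFdARE synovium. This is an order of means only. Il2ra, Tnfrsf9, Ebi3, Il10 and Tnfrsf4 were not called between the TNFdARE tissues. The Ikzf2 libraries overlapped between TNFdARE ileum (0.704 to 1.40) and WT ileum (0.639 to 1.33).

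**Figure D3:**
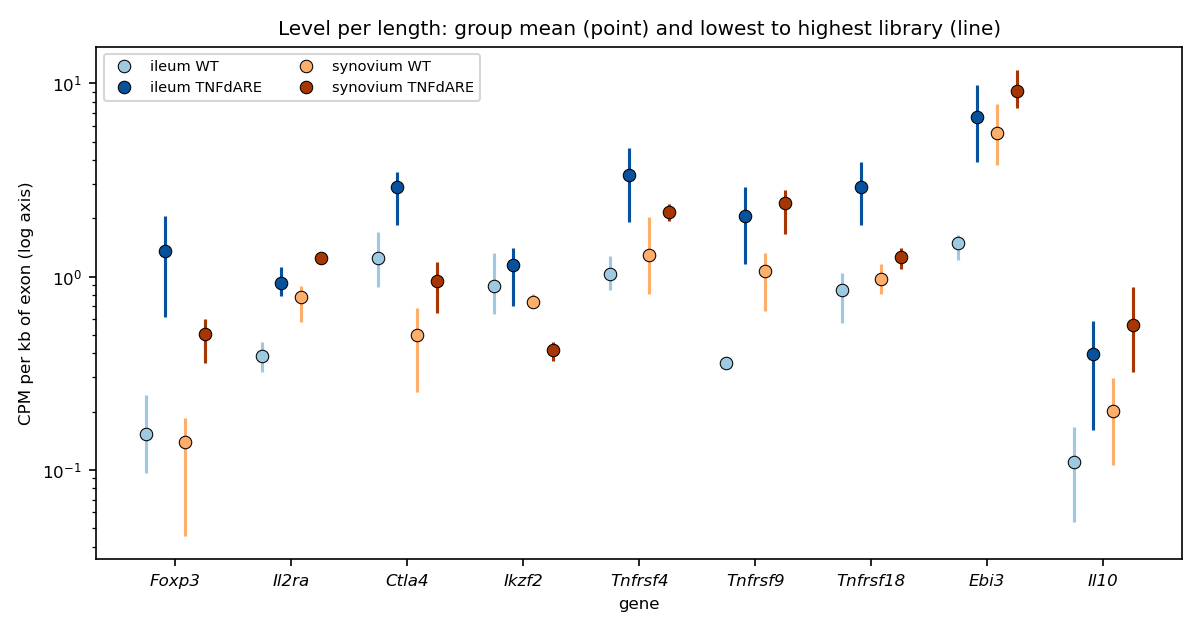
Level per length of each gene (CPM per kb of exon, log axis) in the 4 groups; points are group means and lines run from the lowest to the highest of 3 libraries. Ebi3 lies at the top in each group, and Foxp3 and Il10 lie at the bottom in WT tissue.

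Genes of the T cell receptor complex were used as a scale for T cells in a library. Cd3e, Cd3d and Cd3g summed to 439, 185 and 465 counts in TNFdARE ileum and 365, 246 and 357 in WT ileum, and to 49, 40 and 91 in TNFdARE synovium and 96, 79 and 92 in WT synovium. None of these 3 genes was called in either tissue, and the summed counts of the genotypes overlapped in both. Per 100 of these counts Foxp3 stood at 33.7, 21.6 and 19.6 in TNFdARE ileum and at 4.38, 2.44 and 2.24 in WT ileum, an 8.26-fold difference of means. In the synovium it stood at 93.9, 110.0 and 30.8 in TNFdARE and 3.13, 16.5 and 14.1 in WT, 6.96-fold. The genotypes did not overlap in either tissue, and an exact two-sided permutation test gave p = 0.1 for each, the smallest that 3 against 3 allows. With a sum of 10 T cell genes below the line the ratios were smaller, 5.58-fold in the ileum and 4.31-fold in the synovium, again without overlap. The scale itself leaned lower in TNFdARE synovium, which raises the ratios there. Cd3e had 15 to 26 counts in TNFdARE synovium libraries against 29 to 36 in WT. Of 18 T cell markers 8 were lower there without overlap and 1 higher, beside 21.3% and 23.2% of all genes.

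Measured the same way, Il2ra, Ctla4, Tnfrsf4, Tnfrsf9, Tnfrsf18 and Ebi3 were also higher in every TNFdARE library of both tissues than in any WT library (exact permutation p = 0.1 each, the smallest possible). Il10 overlapped in the ileum (exact permutation p = 0.2) and was higher without overlap in the synovium (p = 0.1). Ikzf2 overlapped in both tissues, at 56.4 ± 7.45 and 49.3 ± 31.6 per 100 in the ileum and 150.5 ± 43.9 and 145.7 ± 18.0 in the synovium (SD, n = 3, TNFdARE first; exact permutation p = 0.8 each). With the 10 T cell genes as the scale, Ebi3 overlapped in the synovium and Ikzf2 was lower there without overlap. In every TNFdARE synovium library Ebi3 (176.9 to 585 per 100), Il2ra (126.4 to 330), Tnfrsf9 (139.6 to 261.2) and Ikzf2 (101.1 to 185) had more raw counts than the 3 Cd3 genes together. Ikzf2 did so in every WT synovium library too (125 to 156.5). Raw counts grow with gene length, and the exons of Ikzf2 span 11613 bases. Per kb of exon Ikzf2 lay below Cd3d alone, at means of 0.415 against 0.526 CPM in TNFdARE synovium and 0.739 against 0.922 in WT synovium. In TNFdARE synovium Ebi3 (9.09), Tnfrsf9 (2.39) and Il2ra (1.25) lay above each single Cd3 gene per kb.

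Cd4, the coreceptor of the T cell lineage that includes regulatory T cells, which some innate lymphoid and myeloid cells also transcribe, gave another scale, chosen after its values were seen. It had 1644, 426 and 952 counts in TNFdARE ileum and 247, 173 and 208 in WT ileum, and 590, 736 and 695 in TNFdARE synovium and 278, 382 and 339 in WT synovium. Outside WT ileum these exceed the summed Cd3 counts in every library. Per 100 counts of Cd4, Foxp3 stood at 9.002, 9.39 and 9.56 in TNFdARE ileum and 6.48, 3.47 and 3.85 in WT ileum, a ratio of means of 2.03. In the synovium it stood at 7.80, 5.98 and 4.03 in TNFdARE and 1.08, 3.40 and 3.83 in WT, a ratio of 2.14. The groups did not overlap (exact permutation p = 0.1 in each tissue, the smallest possible), but the ratios were far below those on the Cd3 scale. Of the other members only Tnfrsf9 in the ileum was higher per Cd4 count without overlap. Ikzf2 in both tissues and Ctla4 and Tnfrsf4 in the ileum were lower without overlap, and the rest overlapped.

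**Figure D4:**
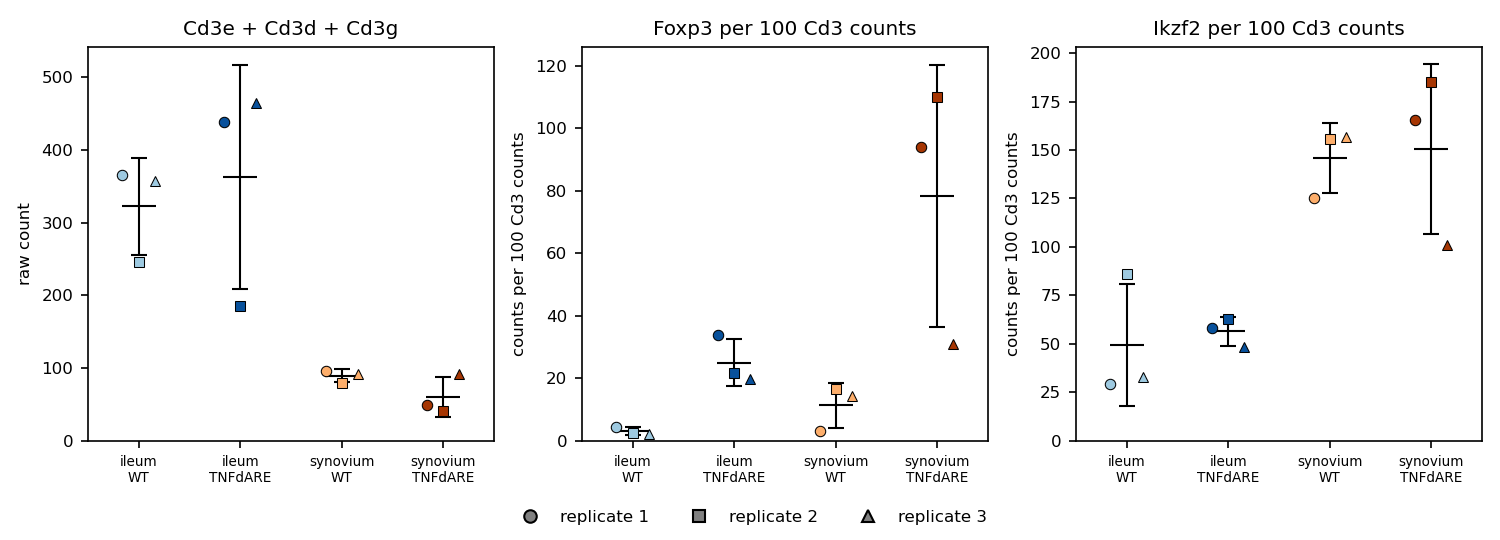
Summed raw counts of Cd3e, Cd3d and Cd3g (left) and counts of Foxp3 (middle) and Ikzf2 (right) per 100 of them in each library, with the group mean and 1 SD (n = 3). For Foxp3 the TNFdARE libraries lie at 19.6 to 33.7 (ileum) and 30.8 to 110.0 (synovium), above the WT libraries at 2.24 to 4.38 and 3.13 to 16.5.

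Other lymphocyte and myeloid genes were also called. Of all genes tested, 4.12% were called higher and 1.57% lower in the ileum, and 13.1% and 10.7% in the synovium. Of 18 T cell markers 1 rose in the ileum (Cd28). Cd4 had a log2 fold change of 2.19 ± 0.46 there, with no overlap, and just missed the threshold (adjusted p = 0.0515). In the synovium Cd4 rose by 0.86 ± 0.12 and Cd8a, Cd28, Lck and Tcf7 fell, Cd8a by 1.54 ± 0.29. The T cell sum was 114 to 328 CPM in TNFdARE ileum and 101 to 137 in WT, and 89.8 to 110 in TNFdARE synovium and 112 to 124 in WT. B cell genes summed to 277, 21.3 and 73.1 CPM in TNFdARE ileum replicates 1 to 3, in the same order from high to low as Foxp3, against 13.7 to 19.1 in WT. That order was not particular to B cell genes. It was also that of the T cell (328, 114 and 251), macrophage (5298, 1330 and 3116) and dendritic cell sums (383, 157 and 304). The NK and cytotoxic sum (79.8, 25.4 and 86.4) had another order. In the synovium the B cell sum was 93.7 to 194 in TNFdARE and 195 to 400 in WT.

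Macrophage genes rose in both tissues, 5 of 10 in the ileum and 8 of 10 in the synovium. Their sums were 1330 to 5298 CPM against 431 to 521 and 5598 to 7502 against 1901 to 2322. For this and the next lists, the shares of all genes called higher were 4.12% (ileum) and 13.1% (synovium). The shares called lower were 1.57% and 10.7%. Of the dendritic cell genes 5 of 9 rose in the ileum and 3 of 8 in the synovium, with sums of 157 to 383 CPM against 47.7 to 61.3 and of 210 to 234 against 130 to 134. Of the NK and cytotoxic genes none of 6 was called in the ileum and 3 of 7 fell in the synovium. Among 7 innate lymphoid genes 1 rose in the ileum and 2 in the synovium. Of 4 tested follicle genes 1 rose in the ileum, and 1 rose and 1 fell in the synovium; Ccl19 and Ccl21a were at 0 in every library. Of the 10 muscle genes 1 was called lower in TNFdARE synovium. Yet 9 of them were lower without overlap, beside 21.3% of all genes, at a median log2 fold change of -1.64 (range -1.79 to -1.52). The part of these cell types in the levels of the 9 genes was not tested, and neither the Cd3 and Cd4 scales nor the muscle covariate can settle it.

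Genes around the IL-2 receptor were called in both directions. Of 8 tested genes of IL-2 signalling, 1 rose in the ileum, where 5.68% of all genes were called, Il2rg, the common gamma chain (2.26 ± 0.46, adjusted p = 0.0497), with a median of 0.67. In the synovium 3 of 8 were called, beside 23.8% of all genes: Il2rg rose (1.86 ± 0.15, adjusted p = 5.39e-04), Il2rb, the beta chain, fell by 1.12 ± 0.30 (adjusted p = 0.0357) and Stat5b, a signal transducer of the receptor, fell by 0.25 ± 0.07 (adjusted p = 0.0397), with a median of 0.10. The medians over all genes were -0.00 in the ileum and 0.00 in the synovium. Il2 itself had 0 to 2 counts in every library.

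The ligands of the member receptors could be tested in 3 of 6 cases. Cd80 and Cd86, the ligands of CTLA-4 and CD28, rose in both tissues: Cd80 by 2.87 ± 0.55 in the ileum and 1.87 ± 0.26 in the synovium, Cd86 by 1.82 ± 0.30 and 0.88 ± 0.12. Tnfsf9, the ligand of 4-1BB, rose by 1.30 ± 0.22 in the synovium (60 to 77 counts against 21 to 27) and was not called in the ileum (15 to 48 against 14 to 22). The list medians were 1.82 in the ileum and 1.30 in the synovium, beside -0.00 and 0.00 over all genes. Of all genes, 4.12% were called higher in the ileum and 13.1% in the synovium. The OX40 ligand gene Tnfsf4 had 2 to 7 counts in TNFdARE ileum and 0 in the WT ileum libraries, and 3 to 5 against 0 to 1 in the synovium. The GITR ligand gene Tnfsf18 had at most 4 counts in an ileum library and 9 in a synovium library.

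Ebi3 needs a partner subunit to be secreted as a cytokine. Il12a, its partner in IL-35, had 7 to 40 counts in TNFdARE ileum and 0 to 3 in WT ileum, too few for the fit, and 81 to 120 against 30 to 81 in the synovium, where it did not pass (0.52 ± 0.35, adjusted p = 0.319). Il27, the partner in IL-27, had 3 to 33 counts in TNFdARE ileum and 3 to 7 in WT, and 7 to 10 against 2 to 7 in the synovium. Of the partners and receptors of IL-10, IL-27 and IL-35, 3 of 5 tested rose in the ileum, beside 4.12% of all genes. They were Il10ra (2.62 ± 0.42), Il12rb2 (1.22 ± 0.21) and Il6st (0.61 ± 0.11). In the synovium 2 of 6 rose, beside 13.1% of all genes, Il10rb by 0.77 ± 0.09 and Il10ra by 0.96 ± 0.13. The list medians were 1.22 and 0.44, beside -0.00 and 0.00 over all genes. Il10ra, the ligand-binding chain of the IL-10 receptor, was thus called in both tissues, while Il10 itself had at most 20 counts in a library.

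The other 4 members of the Ikaros family did not pass in either tissue. Ikzf1, the most abundant of them over the 6 libraries of each tissue but below Ikzf5 and Ikzf3 in WT ileum, had log2 fold changes of 1.94 ± 0.48 in the ileum (adjusted p = 0.0654) and 0.35 ± 0.26 in the synovium (adjusted p = 0.378), and the list medians were 0.94 and -0.06. Of 22 tested genes otherwise associated with regulatory T cells, 3 rose in the ileum and none fell. Over all genes tested there, 4.12% were called higher and 1.57% lower. The 3 were Itgb8, an integrin chain that activates TGF-beta (1.78 ± 0.34), Entpd1, which encodes the ATP-degrading enzyme CD39 (0.98 ± 0.19), and Il1rl1, the IL-33 receptor (0.99 ± 0.21). In the synovium 6 of 21 rose and 1 fell, Fgl2, where 13.1% of all genes were called higher and 10.7% lower. The rises were led by Capg, an actin-capping protein gene (1.03 ± 0.08, edgeR adjusted p = 4.70e-04), and Il1rl1 (1.41 ± 0.11, adjusted p = 5.27e-04). The medians of this list were 1.02 and 0.40. Over all genes, medians were -0.00 in the ileum and 0.00 in the synovium. The lists hold genes that many other cells express.

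Across the 12 libraries the level of Foxp3 was most like that of Tnfrsf18 among the other members (Pearson r of log2 CPM 0.91), followed by Tnfrsf4 (0.82), Tnfrsf9 (0.74), Ctla4 (0.72), Il2ra (0.62), Ebi3 (0.60), Il10 (0.45) and Ikzf2 (0.21). With Cd4 r was 0.93, and with Cd3e 0.24. Among 13664 other genes the 5 with the highest correlation were Bcl2a1a (0.97), Nfkb2 (0.97), Tmsb4x (0.96), H2-T10 (0.96) and Nfkbia (0.96). Bcl2a1a and H2-T10 have near-identical copies in the genome, so that their counts are uncertain. The 12 points fall into 4 groups, and in each tissue the genotypes stand apart in Foxp3, so these values describe the order of the libraries and carry no p.

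In the ileum the calls rest on few libraries. Leaving out TNFdARE replicate 3, or any 1 of the 3 WT libraries, left no member called by edgeR (7 had an unadjusted p under 0.05 each time), and without TNFdARE replicate 1 only Tnfrsf9 and Ebi3 were called. Without TNFdARE replicate 2, 7 members were called, and limma-voom called none (7 unadjusted). The smallest adjusted p of any gene in the ileum fit was 0.0305. In the synovium 0 to 3 members were called when a library was left out, beside 2141 to 2927 of all genes (3713 in the main fit). No member was called without WT replicate 3 (5 unadjusted), only Ikzf2 without TNFdARE replicate 1, and 2 without TNFdARE replicate 2 or 3. Il2ra lost its synovium call in each of the 6 cases (adjusted p 0.0608 to 0.108). Foxp3 lost it without TNFdARE replicates 1 or 2 or WT replicates 2 or 3 (0.0508 to 0.0793), and Tnfrsf9 without TNFdARE replicates 1 or 3 or WT replicates 1 or 3 (0.0746 to 0.112). The direction of each tested member within a tissue was the same under every alternative run.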

How the data were processed

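The values are raw read counts by Ensembl identifier in 12 libraries, as deposited by the authors. Per the labels' protocols the libraries came from a stranded mRNA kit and single reads were sequenced. GRCm38, Bowtie2 2.3.3.1 and cutadapt 1.15 appear in the submitters' processing notes. The counting tool is not given in the sources used here, and a table of normalised expression was not used. Symbols, positions and exon lengths came from the GENCODE annotation of GRCm38, which matched 98.7% of identifiers; 19236 of 46603 genes had 0 counts in every library.

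Each tissue was fitted on its 6 libraries with edgeR 4.0.16 in R 4.3.3 (filterByExpr, TMM, robust quasi-likelihood F test, two-sided, Benjamini-Hochberg over all genes, threshold 0.05). Tissues and the interaction were fitted on 12 libraries in 4 groups. CPM used TMM within a tissue, and CPM per kb used TMM over 12 libraries and the summed exon length. Correlations with Foxp3 used log2(CPM + 0.5) over genes whose mean log2 CPM was 1 or more. The fit was also run on simulated counts with known changes. Each simulated gene had the same mean level in all groups before the change. Levels that are low in only some groups were therefore not simulated, and the run does not bear on calls near the threshold. DESeq2 1.42.0, limma 3.58.1 (voom), other scalings, no filter, a replicate block and leaving out each library were alternatives.

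Same-numbered TNFdARE and WT libraries deviated together within a tissue (Pearson r 0.17 to 0.24 in the ileum and 0.20 to 0.51 in the synovium). These values cover 11412 genes with a mean log2 CPM above 3. The labels do not say what a number marks, and libraries with different numbers were not set beside these, so a pairing is not established. The main fits left the number out, and a replicate block was run only as an alternative. P-values measure the spread between libraries labelled as biological replicates. Intervals cover counting error only, since without molecular identifiers several reads can stem from 1 molecule.

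Every gene of the set was named in every comparison. From each pathway list the called genes with the smallest adjusted p were named, and more where few were called; cell type marker lists were given by counts and sums. A gene of the lists is not reported here. The Cd4 scale was added after the data were seen. The 9 genes and the lists of other genes were chosen with earlier results of these data known.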

Additional observations from a re-analysis of the deposited data

Results flagged for a closer look

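In 8 genes of the accompanying lists, though in none of the 9 members, the genotype difference itself differed between the tissues (edgeR interaction over 12 libraries, adjusted over all genes, log2 of the synovium effect minus the ileum effect). Of the tested genes of IL-2 signalling 2 of 8 were called lower, and of the other regulatory T cell associated genes 4 of 23. Among 6 partners and receptors of IL-10, IL-27 and IL-35, 1 was called higher and 1 lower. Of 3 ligands and 4 Ikaros genes 0 were called. The share over all genes was 12.1%. The beta chain of the IL-2 receptor, Il2rb, had a difference of -2.08 ± 0.60 (SE, adjusted p = 0.0481), and Stat5b one of -0.77 ± 0.17 (adjusted p = 0.0194). The chains of the IL-10 receptor went opposite ways, Il10ra at -1.68 ± 0.44 (adjusted p = 0.0359) and Il10rb at 0.48 ± 0.11 (adjusted p = 0.0243). Itgb8 stood at -1.85 ± 0.41 (adjusted p = 0.0187), Nrp1, which encodes neuropilin-1, at -0.52 ± 0.13 (adjusted p = 0.0317), and the chemokine receptor gene Ccr6 at -3.77 ± 0.96 (adjusted p = 0.0321). Fgl2 had a difference of -1.78 ± 0.24 (adjusted p = 0.00248). Among cell type markers, 5 of 10 B cell, 4 of 9 dendritic cell, 3 of 8 NK and cytotoxic and 3 of 18 T cell genes were called lower. None of these 4 lists had a gene called higher. In the other marker lists Cxcl13, Pdpn and Cdh1 were called higher and Cxcr5, Csf1r, Rora, Prg4 and Clic5 lower. Of all genes, 5.28% were called higher and 6.80% lower in this test, 12.1% in all.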

How the results depend on the processing

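With 3 libraries a group, calls close to the threshold moved with the setting, while directions within a tissue held. In the ileum, where 5 members and 879 genes were called, limma-voom called 0 members and 0 genes (4649 genes had an unadjusted p under 0.05), DESeq2 2715 genes, a fit of all 12 libraries 2722 genes, and scaling by total count alone 1379 genes, 1218 of them higher and 161 lower instead of 637 and 242; that scaling moved the median of all genes to 0.11. In the synovium, the muscle covariate left 0 of 4 members and 460 of 3713 genes called, in a fit where muscle level and genotype cannot be told apart. For the interaction (0 members, 2050 genes, 896 higher and 1154 lower) the replicate block called 2 members and DESeq2 3189 genes, and total-count scaling split the calls into 626 higher and 1380 lower. Leaving out a library gave 0 to 7 members and 0 to 4633 genes in the ileum, 0 to 3 and 2141 to 2927 in the synovium, 0 to 4 and 1015 to 3506 for the interaction, 3 to 4 and 11995 to 12962 between WT tissues, 3 to 5 and 10469 to 11404 between TNFdARE tissues, and Foxp3 ratios per Cd3 count of 6.82 to 10.7 in the ileum and 5.11 to 9.07 in the synovium; fewer libraries also leave fewer residual degrees of freedom. With the 10 T cell genes those ratios were 5.58 and 4.31, and with Cd4, an alternative chosen after seeing the data, 2.03 and 2.14.

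Il10 gave no fitted value within a tissue where the filter removed it. Values near 0 turned sign in 10 cases, and the cause was not tested. For the interaction these were Il10 without ileum TNFdARE replicate 2 (0.11), ileum WT replicate 3 (0.0207) or synovium WT replicate 3 (0.0236), in a range from -0.84 to 0.11 over all libraries left out, and Ctla4 without synovium WT replicate 1 (-0.62 to 0.067). Between WT tissues they were Foxp3 with total-count scaling (0.0134) and without ileum WT replicate 1 (0.33) or synovium WT replicate 1 (0.25), in a range from -0.40 to 0.33, Ikzf2 (-0.48 to 0.11) and Tnfrsf18 (-0.0355 to 0.35) without ileum WT replicate 2, and Tnfrsf4 without synovium WT replicate 1 (-0.17 to 0.57). Total-count scaling moved the median of all genes from 0.03 to 0.17 in that comparison. Of all values of single genes under alternatives, 638 kept their direction and side of the threshold, 55 lost a call and 23 gained one. The replicate block changed the calls of Ctla4 and Tnfrsf4 in the ileum, Ebi3 in the synovium and Tnfrsf18 and Ebi3 in the interaction. It also changed that of Foxp3 between TNFdARE tissues (-1.32, edgeR adjusted p = 0.0695), where numbers are not known to pair libraries. No other call of these 9 genes changed with the block.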
